A study of Sus scrofa with 16 samples.

Results

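ADCYAP1, UTS2 and HRH4 encode 2 signalling peptides and a histamine receptor, and each was measured by 1 of the 20736 rows of the deposited table. They were chosen by their gene symbol in the platform annotation, which names 178 rows and 175 genes. The probes are 17667 for ADCYAP1 (NCBI gene 414283), 11190 for UTS2 (397268) and 19830 for HRH4 (397224). RNA came from liver, skeletal muscle (longissimus), uterine endothelium, as the labels call it, and brain stem, labelled brain, of 4 gilts. Gilts are young female pigs, here aged 165 days, and no treatment or breed was given in the sources used here. The 16 arrays carried oligonucleotides of 70 bases, and each array compared a pair of tissues of 1 gilt with the dyes Cy3 and Cy5. The 4 arrays of a gilt form a closed loop that gives each tissue both dyes, so the gilt is the replicate. A least-squares solution of the loop gave 1 value per tissue and gilt, on a log2 scale, with the gilt's own mean as 0.

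ADCYAP1 encodes the precursor of PACAP, a neuropeptide of the secretin and glucagon family that is made by neurons and raises cyclic AMP in its target cells through receptors coupled to the stimulatory G protein. UTS2 encodes urotensin 2, a cyclic peptide that acts on blood vessels through its own G protein-coupled receptor and that is known, from rodents and humans, in motor neurons of the brain stem and spinal cord. HRH4 encodes the histamine receptor that in humans and mice is carried mostly by cells of the blood and bone marrow, such as mast cells, eosinophils and basophils, and that couples to the inhibitory G protein. The question put to the 3 genes was how brain stem compared with the peripheral tissues.

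The ratio was read as the log2 of Cy5 over Cy3. Neither the base nor the direction is stated, and both are inferred. The direction is called likely because 6 of the 7 measured hepatocyte genes came out highest in liver, beside 7.10% of all rows. Those genes are therefore no independent check of the direction. Of the 4 measured neuronal and glial genes, CEND1 and GAD2 were higher in brain stem than in the mean of the other tissues, GLRB was lower and GAD1 did not pass. Beside them, 20.6% of all rows were higher in brain stem and 26.6% lower. Of 8 listed muscle genes 3 were measured. MYOD1 and LMCD1 were highest in muscle, as 7.11% of all rows were, while MYH7, the slow myosin heavy chain, was not. CAV1, the main caveolar protein, was highest in uterine endothelium, and it was the only 1 measured of 6 listed endothelial and stromal genes. None of the 9 listed mast cell, eosinophil and basophil genes was named on the array (0 of 9), so the cells best known for HRH4 could not be followed. In tissue RNA, fewer cells of a type and less RNA per cell cannot be told apart. No spot intensities were used here, so whether a probe stood above background is unknown, and the number of gilts limits the precision.

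ADCYAP1 was highest in skeletal muscle and did not stand out in brain stem. In muscle its tissue values were 0.61, 0.96, 0.22 and 0.60 in gilts 1 to 4, a mean of 0.60 ± 0.30 (SD, n = 4). In brain stem they were -0.05, -0.31, 0.13 and -0.23, a mean of -0.11 ± 0.19. In liver they were -0.14, -0.24, 0.08 and -0.10, a mean of -0.10 ± 0.13. The muscle values lay above those of each other tissue, with gilt 3 the lowest of the muscle samples, while liver and brain stem covered nearly the same range. In uterine endothelium the values were -0.42, -0.41, -0.43 and -0.28, a mean of -0.38 ± 0.07. Those of gilts 1 to 3 were the lowest values of the gene, and only that of gilt 4 reached the range of brain stem.

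The difference of ADCYAP1 among the tissues passed limma's F test (adjusted p = 0.00078), as did 61.2% of all rows. Muscle exceeded uterine endothelium by 0.98 ± 0.15 (SE; limma adjusted p = 0.00055), brain stem by 0.71 ± 0.15 (adjusted p = 0.0025) and liver by 0.69 ± 0.15 (adjusted p = 0.0040), each in 4 of 4 gilts. Since all 3 differences passed, it was called highest in muscle, as 7.11% of all rows were. With the sign turned it and the same rows would be lowest there. The 3 calls held without any 1 gilt, with a smallest of the 3 differences between 0.53 and 0.88. Below muscle the order was liver, brain stem and uterine endothelium, and no neighbours in it differed past the threshold. Brain stem differed from liver by -0.018, with a 95% interval from -0.34 to 0.30, and from uterine endothelium by 0.27, with an interval from -0.0487 to 0.59. Liver exceeded uterine endothelium by 0.29, with an interval from -0.0309 to 0.61.

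UTS2 was high in liver and low in uterine endothelium, and its brain stem values were split between gilts. In liver the tissue values were 0.31, 0.59, 0.63 and 0.58 in gilts 1 to 4, a mean of 0.53 ± 0.15 (SD, n = 4). In brain stem they were 0.02, -0.19, -0.12 and 0.54, a mean of 0.06 ± 0.33. The solved brain stem value of gilt 4 thus stood within the liver range, and those of the other gilts lay below it. On the array of gilt 4 that paired these tissues, brain stem was the lower, with a ratio of -0.38 over liver. In skeletal muscle the values were -0.05, -0.16, -0.14 and -0.27, a mean of -0.16 ± 0.09. In uterine endothelium they were -0.28, -0.23, -0.36 and -0.85, a mean of -0.43 ± 0.28. Gilt 4 held both the highest brain stem value and the lowest uterine value of this gene, and these tissues met on 1 array of its loop, with a ratio of -1.72 for uterine endothelium over brain stem.

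The tissues differed for UTS2 by limma's F test (adjusted p = 0.0034), which 61.2% of all rows passed. Liver exceeded uterine endothelium by 0.96 ± 0.17 (SE; limma adjusted p = 0.0021) and muscle by 0.68 ± 0.17 (adjusted p = 0.012), in 4 of 4 gilts. Its lead of 0.47 over brain stem, also of 1 sign in 4 of 4 gilts, narrowly missed the threshold (adjusted p = 0.053), so UTS2 was called highest in no tissue. Brain stem exceeded uterine endothelium by 0.49 ± 0.17 (adjusted p = 0.041). The last of these calls rested on gilt 4: the 4 gilts gave 0.30, 0.04, 0.24 and 1.38, and without gilt 4 the difference was 0.19 (adjusted p = 0.19). It was also lost without gilt 1 (0.55) or gilt 3 (0.57), and after each tissue was centred on its most frequent value (0.43). Without gilt 4 the liver lead over brain stem did pass, with brain stem lower by -0.61 (adjusted p = 0.0023). The lead over muscle was lost without gilt 2 (0.66) or gilt 3 (0.65), while that over uterine endothelium held without any 1 gilt. Muscle stood between brain stem and uterine endothelium and differed from neither past the threshold, with 95% intervals for muscle from -0.60 to 0.17 and from -0.11 to 0.65.

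HRH4 was highest in liver, with the widest spread between gilts among the 3 genes in each tissue but muscle. In liver the tissue values were 0.42, 1.08, 0.64 and 1.28 in gilts 1 to 4, a mean of 0.86 ± 0.39 (SD, n = 4). In brain stem they were -0.21, -0.29, 0.26 and -1.004, a mean of -0.31 ± 0.52. Liver overlapped no other tissue, although its lowest value, of gilt 1, was not far above the brain stem of gilt 3. In skeletal muscle the values were -0.24, -0.42, -0.41 and -0.50, a mean of -0.39 ± 0.11. In uterine endothelium they were 0.03, -0.36, -0.49 and 0.22, a mean of -0.15 ± 0.33. Muscle was low in all 4 gilts, whereas uterine endothelium and brain stem each held values on both sides of 0. Gilt 3 was highest in brain stem and lowest in uterine endothelium, and gilt 4 the reverse. The values of a gilt sum to 0, so its tissues are not independent of each other. In gilt 4 these tissues also shared an array, with a ratio of 1.21 for uterine endothelium over brain stem.

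The tissues differed for HRH4 by limma's F test (adjusted p = 0.0060), which 61.2% of all rows passed. Without gilt 2 the F test was not passed (adjusted p = 0.068). Liver exceeded muscle by 1.25 ± 0.27 (SE; limma adjusted p = 0.0050), brain stem by 1.17 ± 0.27 (adjusted p = 0.0053) and uterine endothelium by 1.01 ± 0.27 (adjusted p = 0.019), each in 4 of 4 gilts. HRH4 was therefore called highest in liver, as 7.10% of all rows were, and with the sign turned it and these rows would be lowest there. That call was lost without gilt 2 or gilt 3, where liver led uterine endothelium by 0.86 (adjusted p = 0.14) and 0.97 (adjusted p = 0.062). The lead over muscle missed narrowly without gilt 2 (1.17, adjusted p = 0.053), and the lead over brain stem passed without any 1 gilt (0.80 to 1.43). Among uterine endothelium, brain stem and muscle, in that order, no difference passed. The intervals were wide: brain stem minus uterine endothelium ran from -0.76 to 0.44, brain stem minus muscle from -0.51 to 0.68, and muscle minus uterine endothelium from -0.84 to 0.35.

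**Figure D1:**
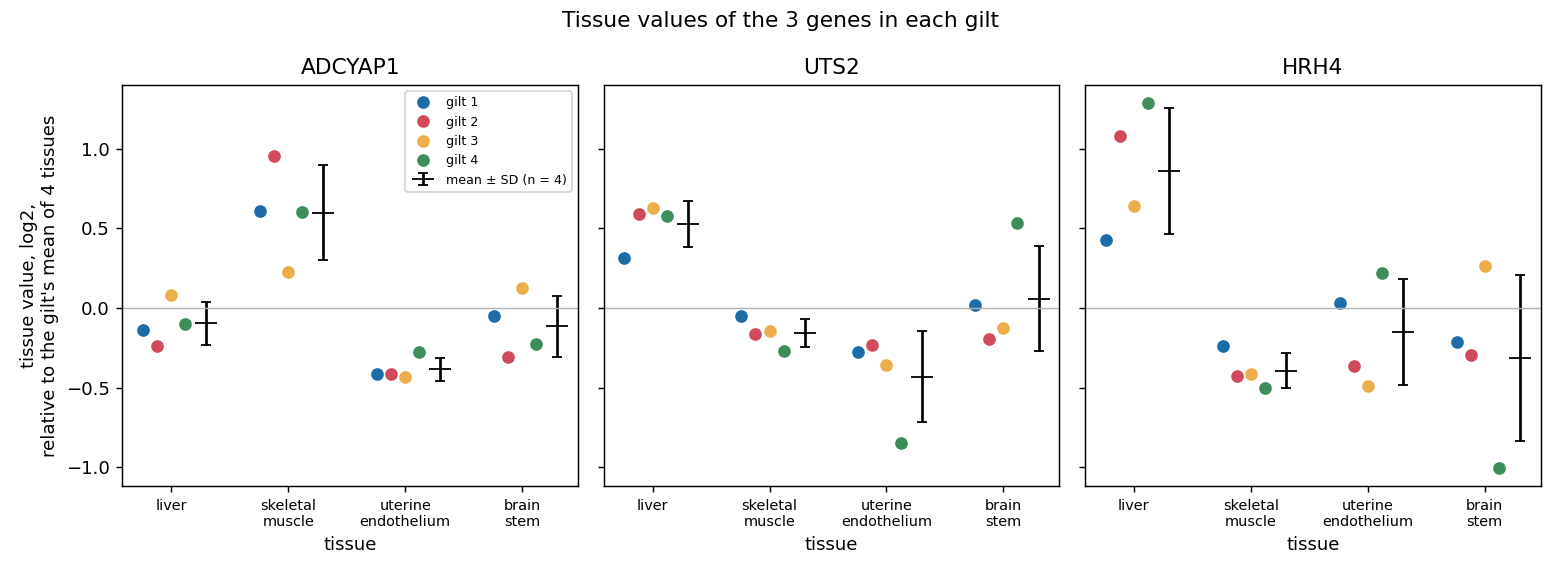
Tissue values of ADCYAP1, UTS2 and HRH4 (log2, relative to the gilt's mean of 4 tissues) in each of 4 gilts, with the mean and SD beside them in black. ADCYAP1 is highest in skeletal muscle (0.60 ± 0.30) and HRH4 in liver (0.86 ± 0.39). UTS2 has its highest mean in liver (0.53 ± 0.15) but was called highest in no tissue. The brain stem points of UTS2 and HRH4 spread widely, with gilt 4 outermost (0.54 and -1.004). The arrays of gilt 4 that held brain stem had the largest SDs over all rows (0.89 and 1.00).

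Against the mean of the 3 peripheral tissues, brain stem differed past the threshold for 0 of the 3 genes by limma, compared with 47.2% of all rows (20.6% higher and 26.6% lower). None had an unadjusted p under 0.05 either (0 of 3), nor by an exact two-sided permutation of which tissue of each gilt was called brain stem. ADCYAP1 stood at -0.15 ± 0.12 (SE; limma adjusted p = 0.31, exact permutation p = 0.60), with brain stem lower in 3 of 4 gilts. Its difference ranged from -0.26 without gilt 3 (adjusted p = 0.066) to -0.0679 without gilt 2. UTS2 stood at 0.0790 ± 0.14 (adjusted p = 0.67, exact permutation p = 0.75), higher in 2 of 4 gilts. It ranged from -0.13 without gilt 4 (adjusted p = 0.24) to 0.19 without gilt 2 (adjusted p = 0.40), and was 0.16 without gilt 3. HRH4 stood at -0.42 ± 0.22 (adjusted p = 0.14, exact permutation p = 0.36), lower in 3 of 4 gilts, and ranged from -0.67 without gilt 3 (adjusted p = 0.056) to -0.11 without gilt 4 (adjusted p = 0.66). A missed threshold does not show equal levels: the 95% intervals reached from -0.41 to 0.11 for ADCYAP1, from -0.23 to 0.39 for UTS2 and from -0.90 to 0.0702 for HRH4.

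Taken tissue by tissue, 3 of the 9 comparisons with brain stem passed, 1 for each gene and each with a different partner. ADCYAP1 was lower in brain stem than in muscle, where 39.1% of all rows differed. HRH4 was lower in brain stem than in liver, where 37.6% of all rows differed. UTS2 was higher in brain stem than in uterine endothelium, where 41.8% of all rows differed, and as given above that call was lost without gilt 1, 3 or 4. Of the 9 comparisons among the peripheral tissues 6 passed, beside 26.1% of all rows for liver and muscle, 24.0% for liver and uterine endothelium and 26.4% for muscle and uterine endothelium. Over all 4 tissues, 23.2% of rows had a larger F than ADCYAP1, 33.8% a larger F than UTS2 and 38.7% a larger F than HRH4.

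**Figure D2:**
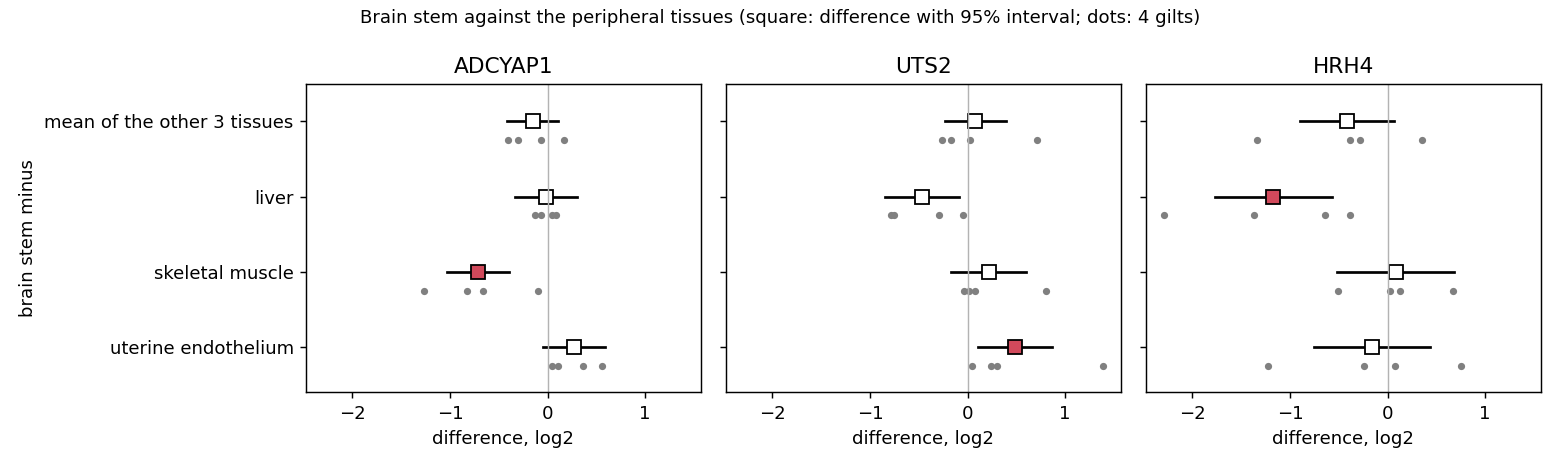
Difference of brain stem from the mean of the other tissues and from each of them (log2), with its 95% interval as a line and the 4 gilts as dots; a filled square passed limma's test. Filled squares stand at -0.71 for ADCYAP1 against muscle, 0.49 for UTS2 against uterine endothelium and -1.17 for HRH4 against liver, and the 3 differences from the mean of the others are open.

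Every tissue was on 8 arrays, in each of which its ratio to the partner tissue can be read before any loop is solved. ADCYAP1 was higher in muscle than in the partner on 8 of 8 arrays, by between 0.0192 and 1.34 with a median of 0.81. UTS2 was higher in liver on 8 of 8 arrays, by between 0.26 and 1.05 with a median of 0.59. HRH4 was higher in liver on 8 of 8 arrays, by between 0.35 and 2.30 with a median of 1.27. Uterine endothelium was below its partner on each of its 8 arrays for UTS2 (-1.72 to -0.15). Brain stem was above its partner on 3 of 8 arrays for each of the 3 genes, with medians of -0.0287 for ADCYAP1, -0.12 for UTS2 and -0.29 for HRH4. Partners differed between gilts, so these counts are over unlike pairs.

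The leading tissue was high with either dye. For ADCYAP1, muscle exceeded its partner by 0.61 ± 0.49 (SD, n = 4 arrays) with Cy5 and by 1.03 ± 0.36 with Cy3. For UTS2 the liver ratios were 0.68 ± 0.36 with Cy5 and 0.53 ± 0.17 with Cy3, and for HRH4 they were 1.29 ± 0.49 and 1.17 ± 0.87. The partner tissues differed between the dyes, so dye and partner cannot be told apart in these means. The loop mean is the average of a gilt's 4 ratios and would be 0 without dye bias or measurement error. It was between -0.31 and 0.0031 for ADCYAP1, between -0.34 and 0.16 for UTS2 and between -0.0149 and 0.0621 for HRH4. The -0.34 was that of gilt 4, whose loop holds the UTS2 ratio of -1.72 for uterine endothelium over brain stem. A dye effect passed limma's test for none of them (0 of 3, and 0 of 3 with an unadjusted p under 0.05), with adjusted p of 0.47, 0.91 and 0.96. Its estimates were -0.13 ± 0.0793 (SE) for ADCYAP1, -0.0355 ± 0.0983 for UTS2 and 0.0246 ± 0.14 for HRH4. The missed test does not show that dye bias was absent, and the share of all rows with a dye effect is not given here.

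**Figure D3:**
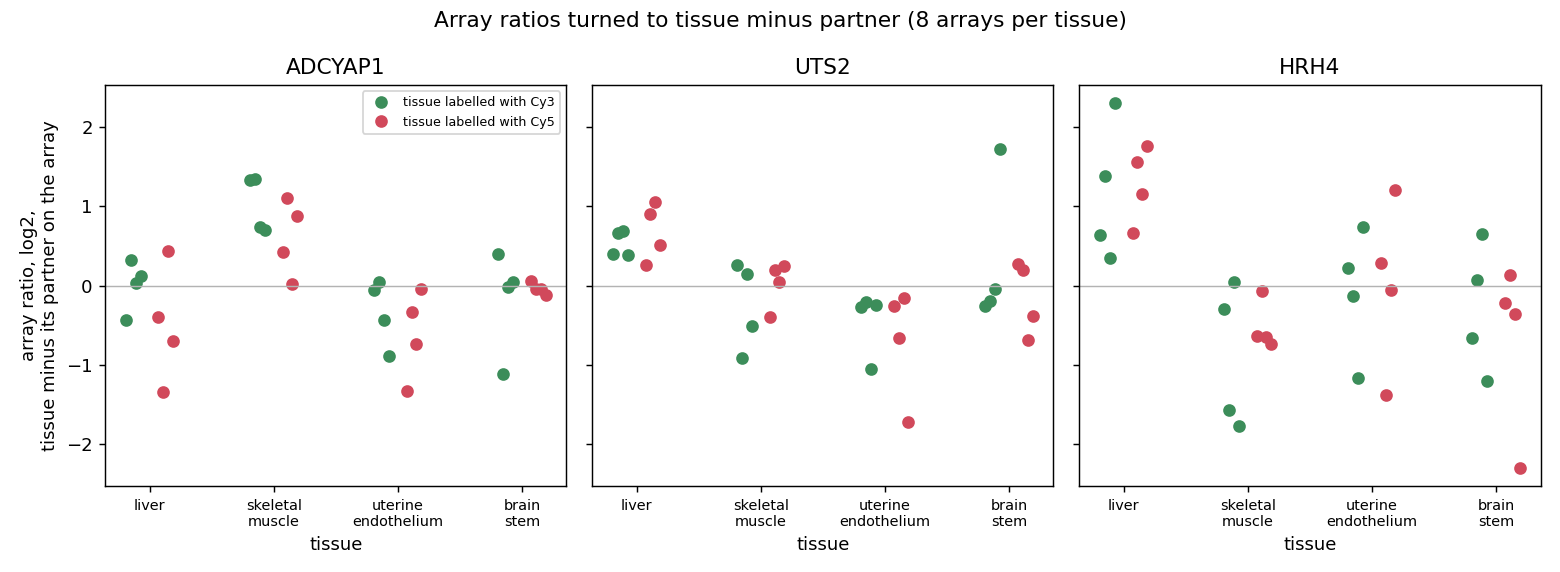
Ratios of single arrays turned to tissue minus its partner on the array (log2), 8 arrays per tissue, in green where the tissue carried Cy3 and in red where it carried Cy5. All muscle points of ADCYAP1 (0.0192 to 1.34) and all liver points of UTS2 (0.26 to 1.05) and HRH4 (0.35 to 2.30) lie above 0 with both dyes.

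The 3 genes did not follow a common pattern. Over the 16 tissue values, which share arrays and gilts and are a description only, Pearson's r was 0.45 between UTS2 and HRH4, -0.0154 between ADCYAP1 and UTS2 and -0.18 between ADCYAP1 and HRH4. Among the other named genes, those most like ADCYAP1 were CDKN2B, a cell cycle inhibitor (r = 0.88), MYOD1, a myogenic transcription factor (0.85), and SMCP, a protein of the sperm mitochondrial capsule (0.83). MYOD1 had a mean of 0.86 in muscle, above ADCYAP1, while CDKN2B reached 0.28 and SMCP 0.14. Those most like UTS2 were the follicle-stimulating hormone receptor FSHR (r = 0.92), CYP7A1, an enzyme that turns cholesterol into bile acids (0.88), and the atrial natriuretic peptide gene NPPA (0.84). All 3 had their tissue means in the same order as UTS2. CYP7A1 had 0.74 in liver and -0.47 in uterine endothelium, and FSHR and NPPA each had 0.22 in liver. Those most like HRH4 were the ficolin FCN1 (r = 0.89), the oestrogen sulfotransferase SULT1E1 (0.86) and UOX, which oxidises uric acid (0.86). Their liver means were 1.25, 0.24 and 1.68.

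**Figure D4:**
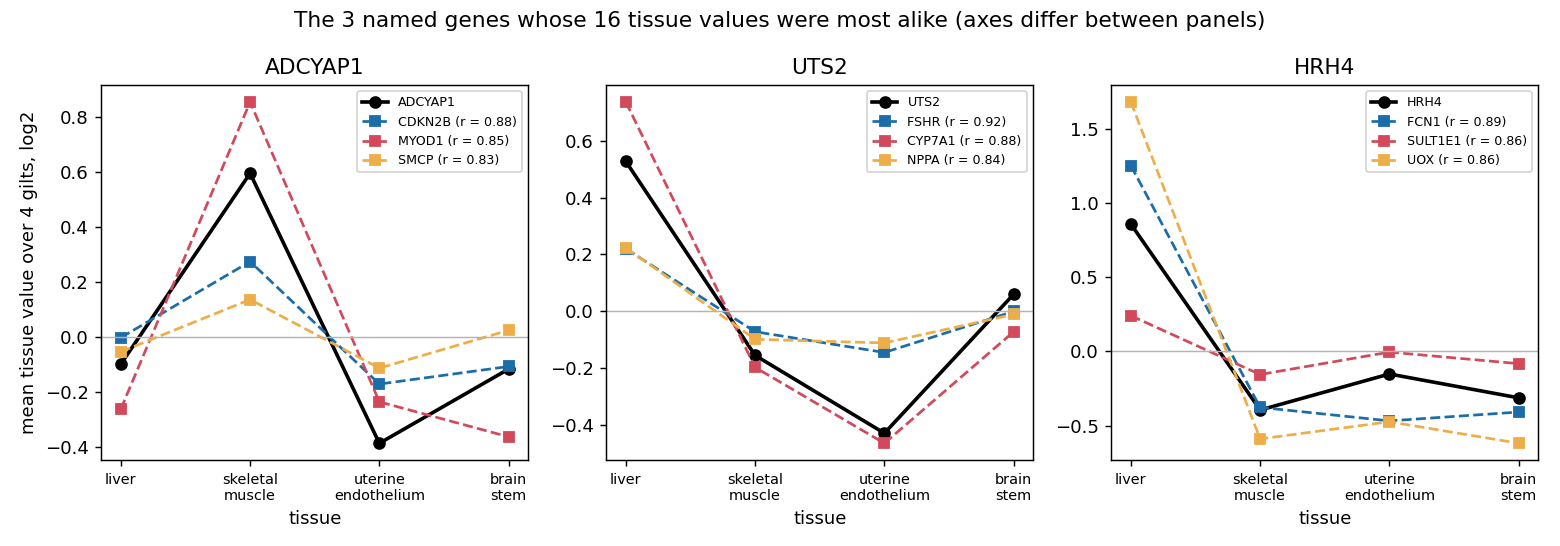
Mean tissue values over 4 gilts (log2) of each of the 3 genes in black and of the 3 named genes with the highest Pearson's r over 16 tissue values in colour; the vertical axes differ between panels. ADCYAP1 peaks in muscle with MYOD1 (0.86), UTS2 in liver with CYP7A1 (0.74), and HRH4 in liver with FCN1 (1.25) and UOX (1.68).

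Rows that stand next to each other in the table had a median r of 0.13 over their 16 tissue values, beside -0.0254 for rows 100 apart and -0.0333 for rows 1000 apart. The row before HRH4 is IL1A, the cytokine interleukin 1 alpha, with r = 0.68 to HRH4 and means of 0.87 in liver and -0.82 in brain stem. The unnamed row after HRH4 had r = -0.26, with -0.49 in liver and 0.75 in brain stem. The row before UTS2 is OCA2, a melanosome transporter, with r = 0.71 and means of 0.34 in liver and -0.13 in uterine endothelium. The row after UTS2, which has no name here, had 1.66 in brain stem and r = 0.0808 with it. ADCYAP1 stood between an unnamed row with r = -0.40 and MGAT4C, a glycosyltransferase gene, with r = 0.58 and tissue means between -0.0579 and 0.0328. The part of these neighbours in the values of the 3 genes was not tested.

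Of a list of 111 other genes of peptide and amine signalling, chosen with earlier results known, 11 were named on the array. Against the mean of the peripheral tissues 3 were higher in brain stem, 3 lower and 5 did not pass, with a median of 0.14 beside -0.0096 over all rows. Over all rows 20.6% were higher and 26.6% lower, so the share called in the list was near that of the table (47.2%). Among the peptide precursors, POMC, which yields corticotropin and beta-endorphin, was higher in brain stem by 0.48 ± 0.0750 (SE; limma adjusted p = 0.00033), with 0.36 ± 0.0963 (SD, n = 4) there and -0.23 ± 0.0755 in liver. PDYN, the dynorphin precursor, was higher by 0.17 ± 0.0532 (adjusted p = 0.021). HCRT, the precursor of the orexins, was lower by -0.33 ± 0.0640 (adjusted p = 0.0014). NPPA stood at -0.0155 (adjusted p = 0.85) and was highest in liver, by 0.23.

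Among the receptors of that list, SSTR5, a somatostatin receptor, was higher in brain stem by 0.40 ± 0.0373 (SE; limma adjusted p = 1.0e-05), while SSTR2, of the same family, stood at 0.19 (adjusted p = 0.091). OXTR, the oxytocin receptor, was lower by -0.20 ± 0.0678 (adjusted p = 0.029) and was, like ADCYAP1, highest in muscle, by 0.37. The melanocortin receptor MC1R stood at 0.26 (adjusted p = 0.14), the leptin receptor LEPR at 0.14 (adjusted p = 0.078) and the vasopressin receptor AVPR2 at 0.0590 (adjusted p = 0.43). GNAS, the stimulatory G protein subunit through which PACAP receptors signal, was lower in brain stem by -2.29 ± 0.22 (adjusted p = 1.0e-05), a larger difference than that of any of the 3 genes or of the other 10 in the list. No listed receptor of PACAP or urotensin 2, and no listed histamine receptor, was named here.

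**Figure D5:**
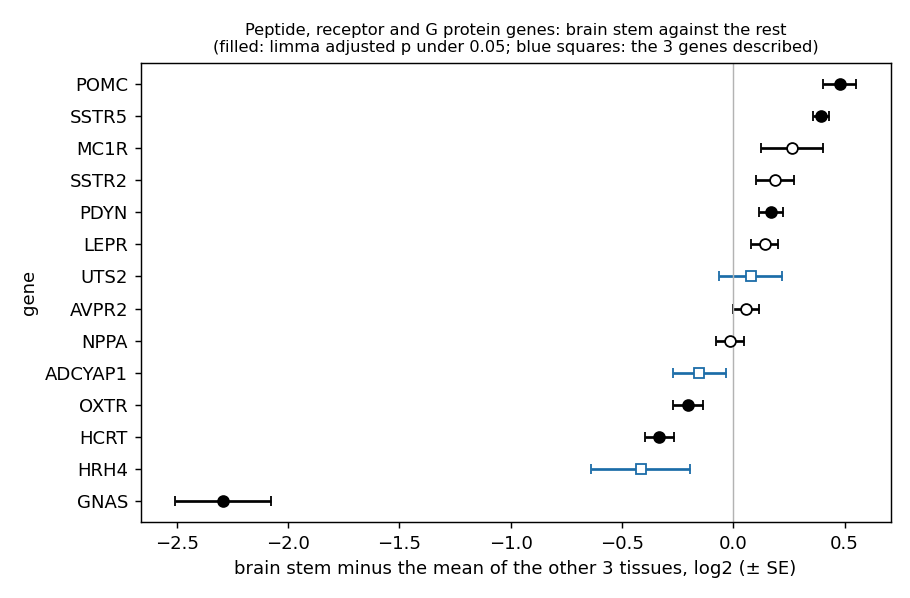
Brain stem minus the mean of the other 3 tissues (log2, bars are SE) for the 3 genes, as blue squares, and the 11 other signalling genes, as black circles; filled symbols passed limma's test. POMC (0.48), SSTR5 (0.40) and PDYN (0.17) lie above 0, GNAS (-2.29), HCRT (-0.33) and OXTR (-0.20) below it, and the squares of ADCYAP1, UTS2 and HRH4 are open.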

How the data were processed

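The authors deposited 1 log ratio for each of 20736 rows on each of 16 arrays, read here as log2 ratios. The sources used here do not say which scanner, background correction, normalization, log base or sign was used. TRIzol extracts were amplified from an oligo(dT) primer before dye coupling, per the labels' protocols. Medians of single arrays ranged from -0.0108 to 0.0119, and no further normalization was applied. The SDs of the arrays ranged from 0.52 to 1.00 and were left unscaled in the main fit. The largest were those of the gilt 4 arrays with brain stem, 0.89 with liver and 1.00 with uterine endothelium.

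Each row's 16 tissue values entered limma 3.58.1 (R 4.3.3), in which gilt was a fixed block and 9 residual degrees of freedom remained. All tests were two-sided, and p-values were adjusted by Benjamini-Hochberg over all rows, with 0.05 as threshold. The pairing comes from the labels, which name the animal. Values are relative to the gilt's mean, so same-gilt deviations sum to 0 and no further check of the pairing could be made. The fit was tested on simulated data. The text names the 3 genes, listed genes, for each gene the 3 most alike, and neighbouring rows. Members and lists were chosen with earlier results of these data known. Alternatives were other centring, scaling and blocks, robust moderation, a filter on small SD, the turned sign, an exact permutation, and each gilt left out. No genome build is named in the files, so no positions are given.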

Additional observations from a re-analysis of the deposited data

Results flagged for a closer look

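Of 33 tissue values and differences of the 3 genes, 3 had 1 gilt far apart, by the ratio of its distance from the next gilt to the full spread of the 4. Chance gives about 1 in 20, and values that share a gilt are not independent. ADCYAP1 in uterine endothelium was -0.28 in gilt 4, while gilts 1 to 3 lay from -0.43 to -0.41 (ratio 0.862). UTS2 in liver was 0.31 in gilt 1, while gilts 2 to 4 lay from 0.58 to 0.63 (ratio 0.845). For UTS2, brain stem exceeded muscle by 0.80 in gilt 4, and gilts 1 to 3 lay from -0.0334 to 0.0711 (ratio 0.875).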

How the results depend on the processing

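The 3 calls of ADCYAP1 held under all 11 alternative fits. Its difference between brain stem and liver, not called in any fit, changed sign with scaled arrays (0.0277) and in the fits of array ratios with no gilt block or a random replicate block (0.0146 in both). For UTS2, brain stem was lower than liver past the threshold with scaled arrays (-0.53), without rows of small SD (-0.47) and with centring on the most frequent value (-0.51), where its lead over uterine endothelium was lost (0.43). Brain stem minus the mean of the others with scaled arrays was -0.16, 0.0192 and -0.32 for ADCYAP1, UTS2 and HRH4, and passed for none. With the sign turned this difference was 0.15, -0.0790 and 0.42 for ADCYAP1, UTS2 and HRH4. Every higher or highest then becomes lower or lowest. The fits with no gilt block or a random replicate block changed no call of the 3 genes. The cause of these changes was not tested.

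Over the fits without 1 gilt, brain stem minus liver ranged from -0.0521 to 0.0187 for ADCYAP1. For UTS2, brain stem minus the mean of the others ranged from -0.13 to 0.19, minus liver from -0.61 to -0.36 and minus uterine endothelium from 0.19 to 0.64, and liver minus muscle from 0.63 to 0.79. For HRH4, brain stem minus muscle ranged from -0.12 to 0.28 and minus uterine endothelium from -0.46 to 0.19, liver minus muscle from 1.07 to 1.45 and minus uterine endothelium from 0.86 to 1.21, the size of its liver call from 0.80 to 1.21, and F from 4.63 to 10.2. F of ADCYAP1 ranged from 9.21 (without gilt 1; 10.3 without gilt 4) to 34.9 (without gilt 3), against 16.6 with all gilts, and F of UTS2 from 6.53 (without gilt 3) to 23.9 (without gilt 4), against 10.9. Rows called ranged from 5611 (without gilt 3) to 7849 for brain stem and uterine endothelium, from 2785 (without gilt 3) to 3978 for liver and uterine endothelium, and from 3103 (without gilt 3; 3436 without gilt 2) to 4487 for muscle and uterine endothelium, with fewer gilts in each fit. Signal over background is unknown, so dim probes could not be told from bright ones.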

Other observations

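A further 10 genes of peptide and amine signalling were picked from the probe names after these had been seen. Earlier results of these data were known by then. Against the mean of the peripheral tissues, 2 were higher in brain stem, 3 lower and 5 did not pass limma's test, with a median of 0.0593. Over all rows 47.2% passed, 20.6% higher and 26.6% lower, so the share called was near that of the table. HTR4, a serotonin receptor, was higher by 0.31 ± 0.0794 (SE; adjusted p = 0.0071), and RXFP4, a receptor of the relaxin family, by 0.17 ± 0.0540 (adjusted p = 0.021). MAOA, which breaks down serotonin and noradrenaline, was lower by -0.66 ± 0.17 (adjusted p = 0.0087), with means of 0.53 ± 0.48 (SD, n = 4) in uterine endothelium and 0.29 ± 0.16 in liver. CYSLTR2, a leukotriene receptor, was lower by -0.19 (adjusted p = 0.014), and the neuropeptide W gene NPW by -0.17 (adjusted p = 0.022). The remaining PPYR1, GHRL, CALCRL, HTR1F and PCSK2 stood between 0.0292 and 0.30.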
